A study of Mus musculus with 16 samples.

Results

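ATP-binding cassette (ABC) transporters were described in 16 RNA sequencing libraries of murine tracheal epithelial cell cultures (MTECs). Members were the protein-coding genes whose symbol is Abc followed by a subfamily letter from a to g and a number. Of 49315 gene identifiers in the count table, 50 met this rule, and the 34 with at least 10 counts in 2 or more libraries are described. The described members were 10 of 16 in subfamily A, 9 of 10 in B, 6 of 10 in C, 3 of 4 in D, the single member of E, all 3 of F and 2 of 6 in G. Cftr, Tap1 and Tap2 belong to the family by sequence but carry other symbols, and are given separately.

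MTECs are primary cells from pooled tracheas that differentiate on porous inserts at an air-liquid interface. The 8 groups were female WT, female KO, male WT and male KO cultures, each left naïve or treated overnight with house dust mite extract (HDM) at 20 µg/ml, with 2 biological replicates per group. KO stands for LMAN1 knockout, a line that the study kept on the C57BL/6J background with WT littermates. All cultures, naïve ones included, were grown on inserts coated with basement membrane made by 3T3 cells, and the age of the donor mice was not given in the sources used here. Nothing says that replicates came from separate pools of tracheas, so p-values measure only the spread between these cultures, which may be technical.

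ABC proteins bind and split ATP to move substrates across membranes. Subfamilies A and G hold most of the lipid exporters, B and C most of the drug and conjugate pumps together with mitochondrial carriers, and D the carriers of the peroxisome and lysosome. E and F members have no membrane part and act on ribosomes. In airway epithelium the family is best known for CFTR, the chloride channel that is mutated in cystic fibrosis, and for pumps that remove inhaled toxins and glutathione conjugates from cells.

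Lman1, the targeted gene, went against part of the labels. Its transcript had 101 to 144 CPM (counts scaled to library size with edgeR's TMM factors) in the 8 WT libraries. Among the libraries labelled KO, both female naïve replicates had 12.8 CPM and the first male naïve replicate had 14.2. The second male naïve replicate had 63.4 CPM, the female HDM replicates 66.6 and 78.1, and the male HDM replicates 65.0 and 66.0. Thus 5 of 8 libraries labelled KO held between 52.6% and 64.8% of the WT mean. Within female KO cultures Lman1 was 5.66-fold higher after HDM (adjusted p = 0.00744, edgeR's quasi-likelihood test). The HDM responses in KO and the KO minus WT differences below therefore compare libraries by label. Where the deletion lies in the gene was not used here.

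Epithelial genes such as Cdh1 and Epcam were high in every library (sum of 7 markers, 6682 to 10620 CPM). Of the ciliated cell markers, the regulator Foxj1 had 44.8 to 97.5 CPM and the axonemal Dnah5 1.43 to 11.4. Scgb1a1, the defining transcript of mature club cells, did not exceed 3.75 CPM. The 10 club and secretory markers, Scgb1a1 included, summed to 4291 to 39600 CPM, led by Cyp2f2 (3754 to 18920 CPM). The 10 haematopoietic markers summed to 109 to 305 CPM, led by the macrophage and airway gene Lyz2 (62.2 to 238 CPM), with Adgre1 at 10.3 to 33.3 and Csf1r at 10.5 to 31.4, whereas the T cell gene Cd3e was at 0 in 15 of 16 libraries. In the female WT HDM response 3 of the 6 tested haematopoietic markers fell, against 22.4% of all genes. The 6 endothelial markers summed to at most 3.2 CPM. Of the fibroblast and stromal markers, 14 genes summed to 865 CPM in female WT naïve replicate 2 and 1344 in female WT HDM replicate 2, against 27.0 to 399 CPM in the other libraries. Total counts per library ran from 21860698 to 43442188, and the ABC genes took 0.158% to 0.204% of them.

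The promoters of members called in at least 2 of the 8 HDM and KO minus WT comparisons are shown first, because the results turn on these genes. Such members with a mean of at least 1 CPM included Abca1, Abcb6, Abcc1, Abcc3, Abcd3 and Abcg2, and 4 had a promoter in the RefSeq table of GRCm38.p6. These genes lie on GRCm38 (GENCODE M21) at chr4:53030787-53159895 for Abca1, chr1:75171717-75180392 for Abcb6, chr16:14361558-14475737 for Abcc1, chr11:94343295-94392997 for Abcc3, chr3:121758774-121815302 for Abcd3 and chr6:58584523-58695676 for Abcg2. The windows hold the 250 bases before a transcript start. They lie at chr4:53159896-53160145 for Abca1 (minus strand), chr6:58640296-58640545 for Abcg2 (plus strand), chr1:75180393-75180642 for Abcb6 (minus strand) and chr3:121815303-121815552 for Abcd3 (minus strand). Where a gene has several starts, the window without an annotated exon of the gene is shown. The Abcb6 window lies inside an exon of the overlapping noncoding gene Gm29253. The Abcg2 window precedes an internal start and so lies within an intron of the longer transcripts. Capitals mark matches on either strand to the motifs named below.
Abca1: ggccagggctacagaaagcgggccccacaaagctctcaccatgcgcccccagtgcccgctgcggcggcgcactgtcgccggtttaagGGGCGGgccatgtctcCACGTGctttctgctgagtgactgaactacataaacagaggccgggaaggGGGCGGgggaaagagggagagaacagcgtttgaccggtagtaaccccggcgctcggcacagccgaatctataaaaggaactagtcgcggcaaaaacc
Abcg2: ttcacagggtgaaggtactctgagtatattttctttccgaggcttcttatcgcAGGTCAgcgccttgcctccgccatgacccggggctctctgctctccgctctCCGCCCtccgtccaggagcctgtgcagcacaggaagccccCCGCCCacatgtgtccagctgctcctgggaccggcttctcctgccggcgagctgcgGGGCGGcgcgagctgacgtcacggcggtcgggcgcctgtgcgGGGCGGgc
Abcb6: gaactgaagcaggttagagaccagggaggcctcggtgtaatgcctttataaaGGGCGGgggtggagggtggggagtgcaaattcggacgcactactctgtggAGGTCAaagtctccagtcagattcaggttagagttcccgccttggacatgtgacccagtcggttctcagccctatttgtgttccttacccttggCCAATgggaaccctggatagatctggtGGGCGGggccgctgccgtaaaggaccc
Abcd3: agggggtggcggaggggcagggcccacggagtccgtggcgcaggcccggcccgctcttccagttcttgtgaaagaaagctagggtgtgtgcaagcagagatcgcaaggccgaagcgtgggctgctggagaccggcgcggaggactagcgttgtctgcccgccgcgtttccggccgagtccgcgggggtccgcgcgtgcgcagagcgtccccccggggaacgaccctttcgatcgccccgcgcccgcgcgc

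In these letters Abca1 had an E-box (CACGTG) and GC boxes (GGGCGG). Abcg2 had a nuclear receptor site (the single repeat AGGTCA) and GC boxes, and Abcb6 had such a repeat, a CCAAT box (CCAAT) and GC boxes. The Abcd3 window held none of the 6 motifs searched, which were these and the AP-1 site (TGANTCA) and the antioxidant response element (TGACNNNGC). Over all 32 windows of 26 described members, GC boxes were in 56.2%, against 32.7% of the 32841 windows in the table. The AGGTCA repeat was in 18.8% (14% of all windows), E-boxes in 9.38% (6.02%), the antioxidant response element in 9.38% (10.2%), the CCAAT box in 21.9% (33.9%) and the AP-1 site in 0% (6.75%). These shares describe letters and were not tested, and several windows of 1 gene can overlap.

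Levels between genes were compared as CPM per kilobase of exon. Each annotated exon base of a gene was counted once, so the order also depends on how many exon bases are annotated. The ribosome-acting members were all among the 5 highest, with means over the 16 libraries of 47.9 for Abcf2, 47.8 for Abcf1, 29.7 for Abce1 and 24.5 for Abcf3. Abcd3, the abundant peroxisomal membrane transporter also called PMP70, had 34.9. Next in order were the cholesterol exporter Abca1 with 16.6 CPM per kilobase, the cyclic nucleotide and prostaglandin pump Abcc4 with 15.3, the glutathione conjugate pump Abcc1 with 15.2 and the phospholipid carrier Abca3 with 11.0. These 9 members exceeded 10 CPM per kilobase, whereas 12 members were under 1. Among the latter were Abcg2 with 0.198, Abcb1a with 0.158 and Abca12 with 0.0455 CPM per kilobase. Ranges over libraries overlapped in 31 of the 33 neighbouring pairs of this order, the exceptions being Abcf1 with Abcd3 and Abcc10 with Abca5.

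**Figure D1:**
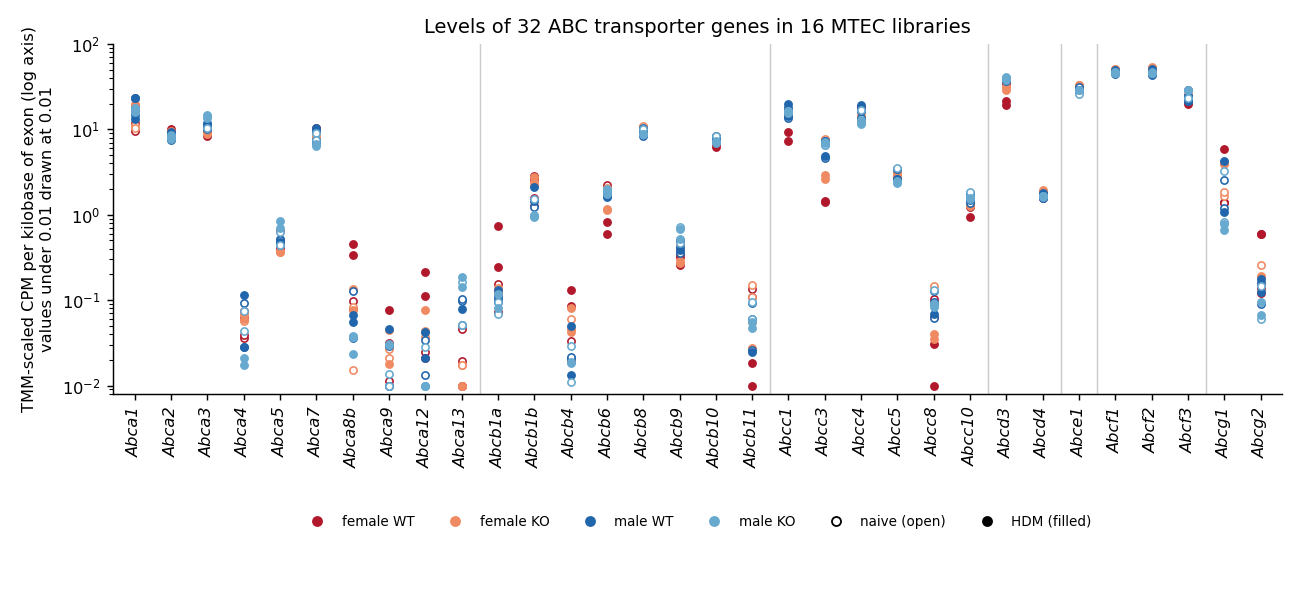
CPM per kilobase of exon (log axis, values under 0.01 drawn at 0.01) for 32 described ABC genes, grouped by subfamily from A to G. Each gene has a point per library, open for naïve and filled for HDM, coloured by sex and genotype. Abcf1 and Abcf2 lie between 43.1 and 53.2 in every library, while Abcc3, Abcg1 and Abcg2 spread widely.

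The other 16 members had at most 8 counts in any library. They were Abca6, Abca8a, Abca14, Abca15, Abca16, Abca17, Abcb5, Abcc2, Abcc6, Abcc9, Abcc12, Abcd2, Abcg3, Abcg4, Abcg5 and Abcg8, of which Abca14 and Abca16 were at 0 throughout. This set includes the sterol exporters Abcg5 and Abcg8 and the apical conjugate pump Abcc2, which were not detectable above this count. Of the 34 described members, 26 reached 10 counts in all 16 libraries and 8 in only some. All 34 passed the filter on low counts. The lowest of them can do so through the group where they are high.

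The HDM response was examined in each sex and genotype. In female WT MTECs HDM raised 10 members and lowered 10, out of 34 tested. Lipid exporters and drug pumps were among those that rose (Abca1, Abcg1, Abcg2, Abcb1a, Abcb1b), while conjugate pumps, the porphyrin carrier Abcb6 and the peroxisomal Abcd3 were among those that fell. The 20 calls (58.8%) stood beside 43.1% of all 15993 genes (edgeR's quasi-likelihood test at 0.05 after Benjamini-Hochberg correction over all genes). By direction, 29.4% of members rose against 20.6% of all genes, and 29.4% fell against 22.4%. The median log2 fold change over members was 0.02, and over all genes -0.02. Replicates of naïve and HDM cultures did not overlap in 26 members (76.5%), against 74.6% of all genes.

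In female KO MTECs the test called 3 of 34 members (8.82%), with 10.4% of all genes called. Abca1 was the 1 member that rose (2.94%, against 4.63% of all genes), and Abcb6 and Abcc3 were the 2 that fell (5.88%, against 5.77%). The naïve and HDM replicates did not overlap in 22 members (64.7%, against 60.4% of all genes). An unadjusted p under 0.05 was found in 8 members (23.5%, against 25.8% of all genes). In male WT MTECs 0 of 34 members were called (0% of all genes) and 0 had an unadjusted p under 0.05 (4.16% of all genes). DESeq2 called 0 members there, and 1 of all 29397 genes. In male KO MTECs 0 were called (0% of all genes) and DESeq2 called 0 (1 of all 29397 genes). There 3 members had an unadjusted p under 0.05 (Abca4, Abca5 and Abcg1), or 8.82% against 5.36% of all genes. Non-overlapping replicates were found in 5 members in male WT (14.7%, against 29.6% of all genes) and 16 in male KO MTECs (47.1%, against 38.5%).

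**Figure D2:**
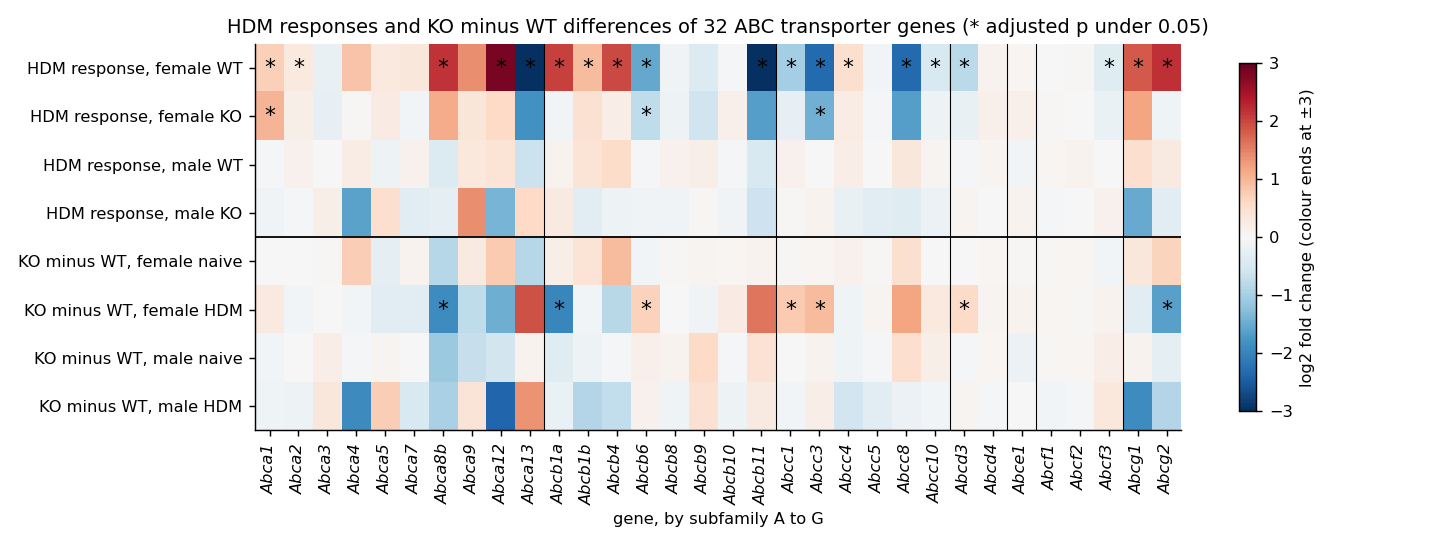
Log2 fold changes of 32 described ABC genes (columns, by subfamily) in the 4 HDM responses and the 4 KO minus WT differences (rows), with red higher and blue lower and the colour ending at 3 in either direction. Stars mark an adjusted p under 0.05, of which 19 lie in the female WT HDM response, 3 in the female KO response and 7 in KO minus WT of female HDM cultures.

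Among the cholesterol exporters, Abca1 loads cholesterol and phospholipid onto apolipoprotein A-I and Abcg1 onto high-density lipoprotein particles. Abca1 had 124 and 99.3 CPM in female WT naïve and 175 and 194 in female WT HDM cultures. The female KO cultures had 116 and 106 CPM naïve and 207 and 243 after HDM. All 4 female HDM libraries thus lay above all 4 female naïve ones. The log2 fold change was 0.72 in WT (standard error 0.25, adjusted p = 0.034, edgeR's quasi-likelihood test) and 1.02 in KO (standard error 0.25, adjusted p = 0.0242). The responses differed by 0.29 between the genotypes (standard error 0.35, adjusted p = 0.618, same test). Male libraries spread from 137 CPM, in WT HDM replicate 2, to 243, in WT HDM replicate 1. Treatment changed the fitted level by -0.04 in male WT and by -0.10 in male KO cultures on the log2 scale, and neither was called.

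Abcg1 had 10.3 and 9.91 CPM in female WT naïve and 29.7 and 42.9 in female WT HDM cultures. Female KO cultures had 12.1 and 13.6 CPM naïve and 28.6 and 29.9 after HDM, without overlap in either genotype. The rise was called in WT (log2 fold change 1.84, standard error 0.64, adjusted p = 0.0362, edgeR's quasi-likelihood test) and not in KO (1.19, standard error 0.63, adjusted p = 0.263). The difference between these responses was -0.66 (standard error 0.88, adjusted p = 0.666).

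The large standard error of Abcg1 came with a split among male libraries that did not follow treatment or genotype. Male WT naïve had 18.8 and 8.85 CPM, male WT HDM 31.3 and 7.82, male KO naïve 24.0 and 5.96, and male KO HDM 5.67 and 4.82. So the first replicate was the higher one in every male group, with a wide gap in 3 of them. In the first replicates of these 3 groups axonemal genes were high and stromal genes low. Ccdc40, which builds the ciliary axoneme, had 8.78, 6.96 and 9.41 CPM there and 2.10 to 3.43 in the other male libraries. The 14 stromal markers summed to 27.0, 31.4 and 32.8 CPM there, against 55.5 to 303. Female libraries did not share this order. Their Ccdc40 was 0.663 to 2.58 CPM after HDM, where Abcg1 was high, and 5.09 to 8.98 CPM naïve. Female stromal sums were 107 to 865 CPM naïve and 203 to 1344 CPM after HDM. The part of these cell types in the Abcg1 values was not tested. In bulk RNA, fewer cells of a type and less RNA per cell cannot be told apart.

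Among the other partners of cholesterol export, 18 genes of sterol sensing and handling were tested. In the female WT HDM response 2 rose and 3 fell, against 20.6% and 22.4% of all genes, with a median log2 fold change of 0.06. Arl4c, a target of the liver X receptors like Abca1 and Abcg1, rose from 257 and 299 to 772 and 715 CPM (log2 fold change 1.42, adjusted p = 1.86e-05, edgeR's quasi-likelihood test). Mylip, another such target that degrades the LDL receptor, fell from 83.7 and 70.3 to 26.9 and 31.1 CPM (-1.41, adjusted p = 2.4e-06).

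The remaining A members act on other lipids. Abca12, which loads lipids into the secretory granules of keratinocytes, rose in female WT cultures from 0.363 and 0.315 to 3.20 and 1.66 CPM (log2 fold change 2.84, standard error 0.64, adjusted p = 0.00393, edgeR's quasi-likelihood test). Of 8 tested barrier lipid genes 3 rose and 1 fell, against 20.6% and 22.4% of all genes. Ugcg, the glucosylceramide synthase, was at 1.19 and Sptlc3, a subunit of serine palmitoyltransferase, at -3.41. Abca8b rose by 2.16 (adjusted p = 0.0126) and Abca2 by 0.28 (adjusted p = 0.0323). Abca8b stayed below 3.5 CPM in every library, and its highest value of 3.41 CPM was in female WT HDM replicate 2, the library with the highest stromal sum. Female WT naïve replicate 2, with a stromal sum of 865.5 CPM, had 0.719 CPM of Abca8b. Female WT HDM replicate 1, with a sum of 398.6 CPM, had 2.497. A stromal part in these values was not tested.

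The retinal transporter Abca4 and Abca5, Abca7 and Abca9 were not called in any comparison, and Abca7 was at 0.34 in female WT (adjusted p = 0.11).

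Abca13 was the A member that fell. In female WT it had 0.908 and 0.382 CPM naïve, and 0.0416 and 0 CPM after HDM, or 42 counts against 1 over both replicates. The ratio of depth-scaled counts was 26.8, with an exact 95% interval of 4.55 to 1.08e+03 that covers counting error only. The adjusted p was 0.00434 (edgeR's quasi-likelihood test). Male libraries of this gene lay higher, between 1.00 and 3.72 CPM. Over the female KO replicates 23 naïve counts stood against 5 after HDM, and the decrease was not called (adjusted p = 0.195). Nor was the difference between the female WT and KO responses.

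Abca3, which fills the lamellar bodies of alveolar cells with surfactant lipid, was not called in any comparison, with 79.1 to 137 CPM over all libraries. In the female WT HDM response its log2 fold change was -0.22 (adjusted p = 0.214). Of 7 tested surfactant genes 3 fell and 1 rose, against 22.4% and 20.6% of all genes. The secreted collectin Sftpd was at -2.13 (adjusted p = 1.11e-06) and Lpcat1, a phospholipid acyltransferase, at 0.76 (adjusted p = 0.000108).

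The drug efflux pumps Abcb1a and Abcb1b both encode P-glycoprotein in the mouse, and Abcg2 encodes the breast cancer resistance protein. Abcg2 had 0.981 and 1.12 CPM in female WT naïve and 4.83 and 4.83 in female WT HDM cultures. Female KO libraries had 1.28 and 2.11 CPM naïve and 1.57 and 1.54 after HDM. The female WT HDM libraries were therefore above every other library, the highest of which was a female KO naïve one. The log2 fold change was 2.19 in WT (standard error 0.41, adjusted p = 0.00118, edgeR's quasi-likelihood test) and -0.12 in KO (standard error 0.40, adjusted p = 0.89). The difference between these responses was itself called (-2.31, standard error 0.57, adjusted p = 0.0268). Male libraries lay between 0.492 and 1.45 CPM in all 4 groups.

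Abcb1b, the more abundant of the P-glycoprotein genes here, had 10.1 and 12.6 CPM in female WT naïve and 22.7 and 21.1 in female WT HDM cultures. Its log2 fold change of 0.94 was called (standard error 0.26, adjusted p = 0.0113, edgeR's quasi-likelihood test). Its female KO replicates had 12.0 and 18.1 CPM naïve and 21.99 and 19.15 CPM after HDM, without overlap (0.45, adjusted p = 0.289). The female WT and KO responses of Abcb1b were not called as different. Abcb1a rose in female WT by 2.04 (adjusted p = 0.00557). Female WT naïve replicate 2, with a stromal sum of 865.5 CPM, had 0.854 CPM of Abcb1a. The female WT HDM replicates differed, with 1.33 and 4.03 CPM, and the higher value was again in the library with the highest stromal sum. Without that replicate the log2 fold change was 1.04 and not called (adjusted p = 0.106). The genes are close paralogs whose reads may be divided between them by the counting, so their separate values are uncertain. Abcb4, a phosphatidylcholine translocator that lies beside them on chromosome 5, rose by 1.99 (adjusted p = 0.0151) and stayed under 1.25 CPM.

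Of the multidrug resistance proteins, Abcc1 exports glutathione conjugates and leukotriene C4, and Abcc3 exports glucuronides and bile acids. Abcc1 had 252 and 255 CPM in female WT naïve and 142 and 109.6 in female WT HDM cultures. The KO counterparts had 247 and 269.5 CPM naïve and 215 and 221 after HDM. Both female WT HDM libraries lay below all the others, since male libraries ran from 204 to 302 CPM. The log2 fold change was -1.01 in WT (standard error 0.17, adjusted p = 0.000526, edgeR's quasi-likelihood test) and -0.24 in KO (standard error 0.16, adjusted p = 0.385). The difference of 0.77 between these responses was not called by edgeR's test (standard error 0.23, adjusted p = 0.0538), whereas DESeq2 called it (0.76, adjusted p = 0.0139).

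Abcc3 had 43.3 and 39.1 CPM in female WT naïve and 8.32 and 7.96 in female WT HDM cultures. The same gene in female KO had 43.5 and 41.9 CPM naïve and 16.5 and 15.0 after HDM. Male libraries stayed between 26.6 and 42.2 CPM with either treatment, above every female HDM library. Abcc3 thus fell in both female genotypes, 5.05-fold in WT (log2 fold change -2.34, standard error 0.21, adjusted p = 8.88e-06, edgeR's quasi-likelihood test) and 2.71-fold in KO (-1.44, standard error 0.20, adjusted p = 0.00164). The difference of 0.90 between these responses was not called by edgeR's test (standard error 0.29, adjusted p = 0.0649), whereas DESeq2 called it (0.89, adjusted p = 0.0263).

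Abcc4 moved the other way. Its mean per kilobase was the highest of the C members, but only just (15.28, against 15.22 for Abcc1). Abcc4 had 84.1 and 82.2 CPM in female WT naïve and 117 and 116 in female WT HDM cultures (log2 fold change 0.49, standard error 0.15, adjusted p = 0.0215, edgeR's quasi-likelihood test). For female KO, 86.9 and 94.9 CPM stood against 106 and 107 (0.23, adjusted p = 0.378). WT and KO responses of Abcc4 were not called as different. Abcc8, the sulfonylurea receptor of potassium channels, fell from 51 to 6 counts over both female WT replicates (ratio 5.42, exact 95% counting interval 2.32 to 15.4, adjusted p = 0.0238). Abcc10 fell by 0.47 on the log2 scale (adjusted p = 0.0343). Of its 6856 exon bases, 51 overlap exons of the basal cell gene Dlk2 on the opposite strand. Abcc5, a pump for cyclic nucleotides, was at -0.08 and was not called.

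Genes of xenobiotic sensing and conjugation, a list that holds sensors as well as enzymes, fell more often than they rose. Of 19 tested, 12 fell and 1 rose in the female WT HDM response, against 22.4% and 20.6% of all genes. Their median log2 fold change was -0.82. The female KO response had 3 that fell and 0 that rose (5.77% and 4.63% of all genes), with a median of -0.29. The glutathione transferase Gsta3 fell from 418 and 410 to 75.1 and 43.4 CPM in female WT (-2.80, adjusted p = 2.02e-06, edgeR's quasi-likelihood test). It fell by 1.09 in female KO cultures (adjusted p = 0.0054). Gstm1, of the mu class, was at -1.88 (adjusted p = 1.05e-05) in WT and at -0.56 (adjusted p = 0.0579) in KO.

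**Figure D3:**
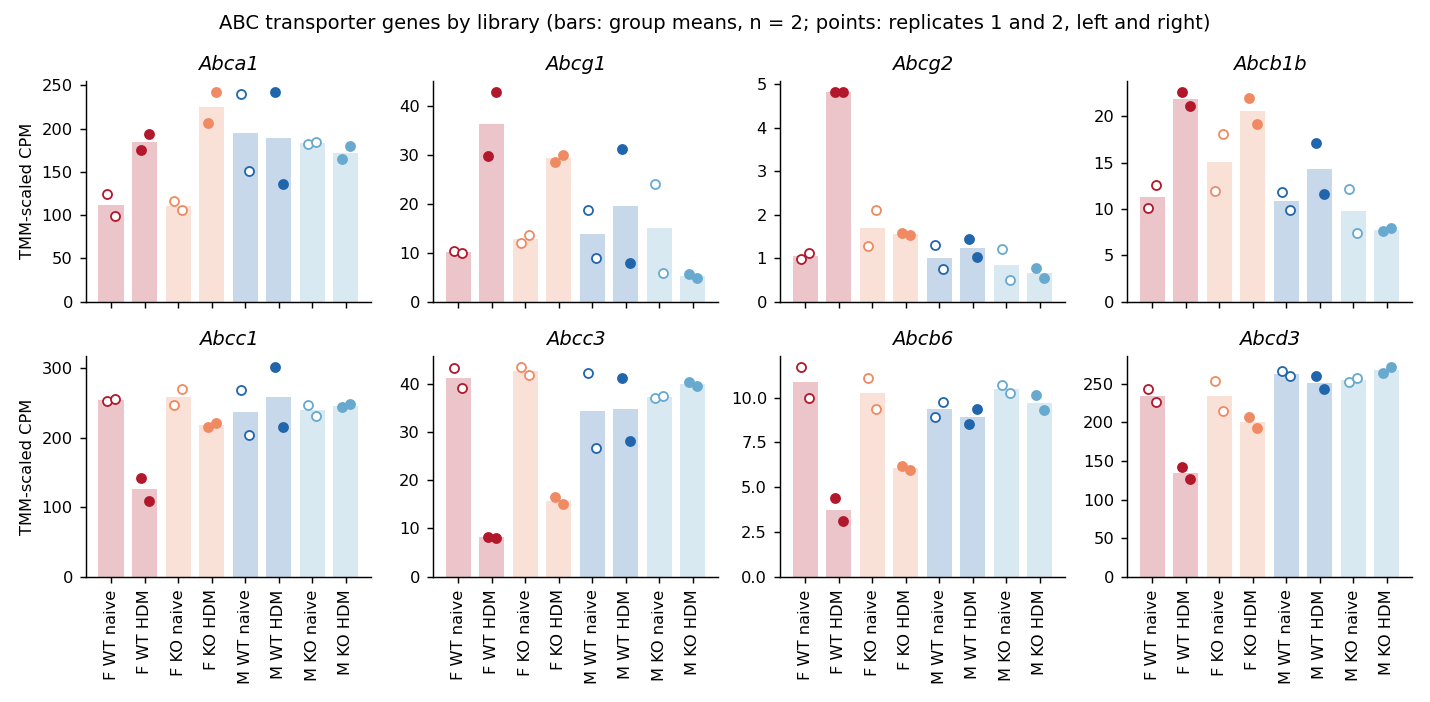
TMM-scaled CPM of 8 ABC genes in the 8 groups, with bars for group means (n = 2) and points for replicates 1 and 2. Abcg2 is high only in the female WT HDM libraries, and Abcc1, Abcc3, Abcb6 and Abcd3 are lowest there. Abcc3 and Abcb6 are also low in the female KO HDM libraries. Abcg1 is split between replicates in 3 male groups.

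Several B members serve mitochondria and haem. Abcb6, a porphyrin carrier, had 11.7 and 9.98 CPM in female WT naïve and 4.37 and 3.13 in female WT HDM cultures. For female KO, 11.1 and 9.39 CPM stood against 6.17 and 5.98, while male libraries ran from 8.51 to 10.7. All female HDM libraries were thus below the rest. The log2 fold change was -1.53 in WT (standard error 0.17, adjusted p = 3.3e-05, edgeR's quasi-likelihood test) and -0.75 in KO (standard error 0.16, adjusted p = 0.0131). The difference of 0.78 between these responses was not called by edgeR's test (adjusted p = 0.0512), whereas DESeq2 called it (0.76, adjusted p = 0.0362). Abcb6 shares 2932 exon bases with Gm29253 on the same strand, so its counts may omit or include reads of that gene.

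Abcb8, the most abundant B member per kilobase, had 50.9 and 49.2 CPM in female WT naïve and 47.4 and 45.5 in female WT HDM cultures. Its female KO libraries had 50.8 and 52.1 CPM naïve and 48.1 and 44.7 after HDM, and male libraries had 40.0 to 49.4. It was not called in any comparison. Abcb10, of the mitochondrial inner membrane, was at -0.03 in female WT. Of 15 tested genes of mitochondrial iron and haem, 5 fell and 1 rose in female WT, against 22.4% and 20.6% of all genes. Alas1, the first enzyme of haem synthesis, was at -2.40 (adjusted p = 3.6e-06) in WT and at -0.75 (adjusted p = 0.0229) in KO.

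The bile salt export pump Abcb11 fell in female WT from 44 to 3 counts over both replicates (ratio 9.19, exact 95% counting interval 2.95 to 46.3, adjusted p = 0.00557, edgeR's quasi-likelihood test). Abcb9, a lysosomal peptide carrier, was not called. The antigen peptide transporter subunit Tap1 had 50.4 and 49.9 CPM in female WT naïve and 72.9 and 60.3 in female WT HDM cultures (log2 fold change 0.41, adjusted p = 0.0111), whereas its partner Tap2 was at -0.17 (adjusted p = 0.323). Of 10 genes of peptide loading 8 rose and 0 fell in female WT, against 20.6% and 22.4% of all genes. B2m, the light chain of MHC class I, was at 1.49 and the chaperone Tapbp at 0.88. Of the 10 genes, 0 were called by edgeR in female KO cultures (10.4% of all genes), where B2m was at 0.23 (adjusted p = 0.118). Cftr had between 0.413 and 1.55 CPM and was not called (0.34 in female WT, adjusted p = 0.451).

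In the peroxisomal subfamily D, Abcd3 had 243 and 226 CPM in female WT naïve and 142 and 127 in female WT HDM cultures. For female KO, 254 and 214 CPM stood against 207 and 192. Male libraries had 243 to 272 CPM in all 4 groups, above both HDM groups of females. The log2 fold change was -0.80 in WT (standard error 0.09, adjusted p = 3.99e-05, edgeR's quasi-likelihood test) and -0.23 in KO (standard error 0.09, adjusted p = 0.13). The difference between these responses was called (0.57, standard error 0.13, adjusted p = 0.0177). Abcd4, which takes part in lysosomal cobalamin release, was at 0.12 in female WT. Of 14 tested peroxisomal genes 2 fell and 0 rose in each female genotype, and Acox3, a branched-chain acyl-CoA oxidase, was at -0.46 in WT. Of all genes, 22.4% fell in female WT and 5.77% in female KO cultures.

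Of the 4 ribosome-acting members only Abcf3 was called in any comparison. Abce1, which splits ribosomes after termination, had 166 and 183 CPM in female WT naïve and 187 and 179.7 in female WT HDM cultures. Female KO replicates had 181 and 174 CPM naïve and 200 and 197 after HDM. Male libraries had 156 to 190 CPM. Abce1 had log2 fold changes of 0.07 in female WT and 0.16 in female KO cultures (adjusted p = 0.444 and 0.164, edgeR's quasi-likelihood test).

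Abcf2 had 121 and 127 CPM in female WT naïve and 128 and 126 in female WT HDM cultures, a log2 fold change of 0.03 (standard error 0.08). For female KO, 123 and 137 CPM stood against 136 and 126, and male libraries had 110.7 to 129.9. Abcf1, which binds the initiation factor eIF2, was at 0.01 in female WT and 0.03 in female KO cultures (standard error 0.06 in each). Abcf3 fell by 0.37 in female WT (adjusted p = 0.0186, edgeR's quasi-likelihood test). Of 10 tested partners in ribosome recycling and translation control 4 rose and 2 fell in female WT, against 20.6% and 22.4% of all genes. Among them were Eif2s2, a subunit of eIF2, at 0.66 and the stress-response factor Atf4 at -0.48.

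Calls in the female HDM responses differed in how far they rested on single libraries. In female WT the calls of Abca12, Abca13, Abcb6, Abcb11, Abcc1, Abcc3, Abcd3 and Abcg2 held with each of the 4 libraries left out, as did that of Abcc3 in female KO cultures. The calls of Abca1, Abcc4 and Abcg1 in female WT were lost without any one of the 4, with adjusted p up to 0.188, 0.0927 and 0.156 (edgeR's quasi-likelihood test), and so was that of Abca1 in female KO cultures (up to 0.166). Abcb1b was lost without female WT naïve replicate 1 (log2 fold change 0.79, adjusted p = 0.0916), and Abcb4 and Abcf3 without that library or HDM replicate 1 (adjusted p up to 0.0996 and 0.149). Abca8b and Abcc10 were lost without either naïve replicate or HDM replicate 2 (adjusted p up to 0.08 and 0.252), Abcc8 without replicate 2 of either treatment (up to 0.126), Abca2 without either naïve replicate or HDM replicate 1 (up to 0.192), and Abcb1a also without naïve replicate 1 (1.63, adjusted p = 0.055). With only the compared libraries in the fit, the calls of Abcb1a, Abcc8 and Abcc10 in female WT were lost as well, and with library size as the only scaling that of Abca2. Abcb6 in female KO cultures was lost without any library except naïve replicate 2 (adjusted p up to 0.131).

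The KO minus WT differences were compared at each treatment and sex. Female HDM cultures were the only ones with calls by edgeR's test. There 8 of 34 members were called (23.5%, against 29.2% of all genes). In libraries labelled KO 5 members were higher (14.7%, against 14.9%) and 3 were lower (8.82%, against 14.3%). The higher ones included Abcc3 (0.95), Abcc1 (0.80), Abcb6 (0.69) and Abcd3 (0.57), with adjusted p between 0.00111 and 0.0108. The lower ones were Abcb1a (-1.96, adjusted p = 0.013), Abca8b (-1.90, adjusted p = 0.0346) and Abcg2 (-1.63, adjusted p = 0.0108). This comparison shares the female WT HDM libraries with the female WT HDM response, so the sets of values are not independent. The replicates did not overlap in 21 members (61.8%, against 68.3% of all genes). The xenobiotic list had 11 of 19 genes higher and 0 lower, and the peptide loading list 8 of 10 lower. Of all genes, 14.9% were higher and 14.3% lower.

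Without female WT HDM replicate 2, the library with the highest stromal sum, the number of members called in this comparison was 1 in place of 8. Over all genes the calls fell as well, from 4669 of 15993 to 1701 of 16427. The remaining call was Abcd3, which held under every setting. Abcc1 was then at 0.62 (adjusted p = 0.0623) and Abcc3 at 0.92 (adjusted p = 0.0607) in edgeR's test. The call of Abcg2 was lost without this library or either KO one (adjusted p up to 0.079), and so were those of Abca8b (up to 0.176) and Abcb1a (up to 0.206). The call of Abcb6 was also lost without KO replicate 1 (up to 0.111) and with only the compared libraries in the fit. Calls over all genes also fell without any other of the 4 libraries compared. These included the female KO HDM replicates, with stromal sums of 255.7 and 203.1 CPM. Stromal markers moved with this comparison too, with 5 of 14 lower in KO and 0 higher, against 14.3% and 14.9% of all genes. In all 4 libraries compared Lman1 was well expressed, and its own difference was -0.59 (adjusted p = 0.331).

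In female naïve cultures 0 of 34 members were called for genotype (0% of all genes). DESeq2 called 0 members there, and 1 of all 29397 genes. An unadjusted p under 0.05 was found in 0 members (1.27% of all genes). Lman1 itself was not called there either, although it was at -3.26 (adjusted p = 0.403, edgeR's quasi-likelihood test). The lack of calls thus does not show equal levels. In male naïve cultures 0 were called (0% of all genes) and DESeq2 called 0 (0 of all 29397 genes). There 1 had an unadjusted p under 0.05 (Abce1, -0.18), or 2.94% against 5.42% of all genes. In male HDM cultures 0 were called by edgeR (0% of all genes), while 10 had an unadjusted p under 0.05 (29.4%, against 18.1% of all genes). DESeq2 called 2 of them, Abcb1b (-0.89, adjusted p = 0.0358) and Abcc4 (-0.56, adjusted p = 0.0216), as it did 508 of 12869 genes. Abcg1 was at -1.90 there (adjusted p = 0.203, edgeR), with the WT replicates at 31.3 and 7.82 CPM. Non-overlapping replicates were found in 9 members for female naïve (26.5%, against 27.6% of all genes), 7 for male naïve (20.6%, against 28.4%) and 21 for male HDM cultures (61.8%, against 53.8%).

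Whether HDM responses differed was tested directly. Between genotypes, 2 of 34 members were called in females (5.88%, against 11.2% of all genes). The KO response was higher for Abcd3 (1 member, 2.94%, against 6.16% of all genes) and lower for Abcg2 (1 member, 2.94%, against 5.08%). Without female WT HDM replicate 2 the number was 0, and over all genes it was 589 of 16427 in place of 1798 of 15993. In males 0 were called (0% of all genes) and DESeq2 called 0 (0 of all 29397 genes). There 1 had an unadjusted p under 0.05 (Abcg1), or 2.94% against 8.68% of all genes. Between sexes, 6 members were called in WT (17.6%, against 24.2% of all genes). The female response was lower than the male one for 5 (14.7%, against 12.8%), namely Abca13 (-3.94), Abcc3 (-2.35), Abcb6 (-1.46), Abcc1 (-1.14) and Abcd3 (-0.73), and higher for 1, Abcg2 (1.91), or 2.94% against 11.3%. Adjusted p ranged from 0.000208 to 0.0383 (edgeR's quasi-likelihood test). In KO 1 member was called, Abcc3 (-1.54, adjusted p = 0.015), or 2.94% against 3.56% of all genes. The female response was the lower one, as for 1.77% of all genes, while 0 members were higher, against 1.79%.

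Markers of the cell types in these cultures moved with the female HDM groups. All 10 club and secretory markers fell in female WT, where their sum was 30120 and 23010 CPM naïve and 5269 and 4291 after HDM. In the KO 7 of 10 fell, with 26580 and 21430 CPM against 9859 and 9497. Of all genes, 22.4% fell in female WT and 5.77% in female KO cultures. In male cultures 0 of the club and secretory markers were called by edgeR (0% of all genes). The 10 basal markers summed to 11010 and 12050 CPM in female WT naïve and 4906 and 2571 in female WT HDM cultures, and 6 of them fell. Of the 16 ciliated markers 9 fell in female WT, all 6 tested goblet markers fell, and 4 of 14 stromal markers rose (20.6% of all genes rose). KO minus WT in female HDM cultures had 8 club and secretory and 8 basal markers higher and 0 lower, against 14.9% and 14.3% of all genes. The part of these shifts in the changes of Abcc1, Abcc3, Abcb6, Abcd3 and Abcg2 was not tested.

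**Figure D4:**
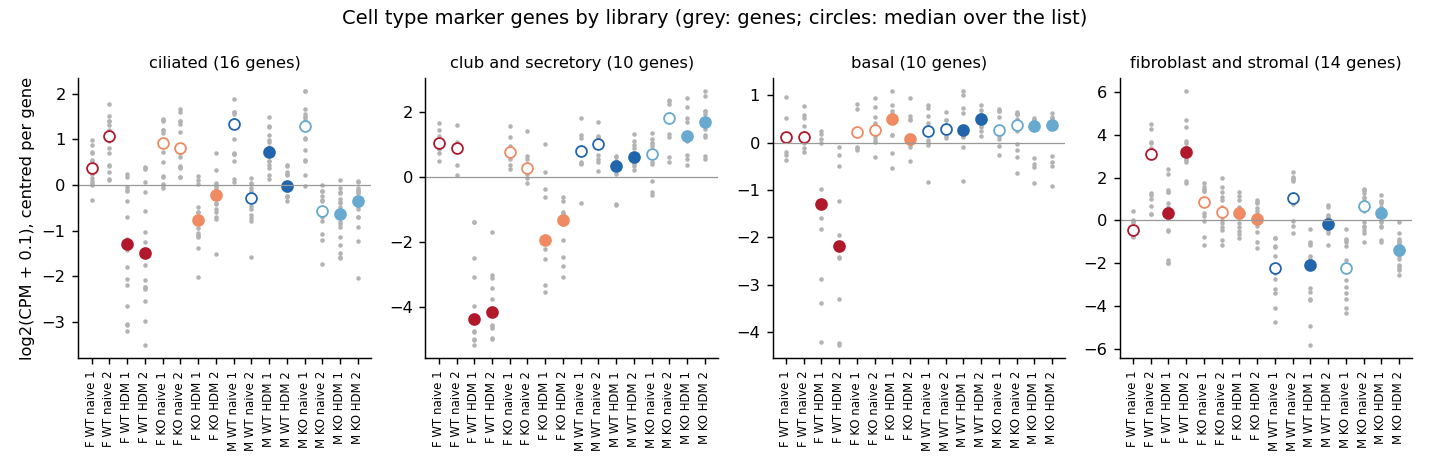
Marker genes of 4 cell types in the 16 libraries as log2(CPM + 0.1), centred for each gene, with grey points for genes and circles for the median over the list. Club and secretory and basal medians are lowest in the female WT HDM libraries, and stromal medians are lowest in the first replicates of male WT naïve, male WT HDM and male KO naïve.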

How the data were processed

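For 16 MTEC libraries the authors deposited whole-number read counts for each Ensembl identifier, without normalization. The submitters' processing notes name Trimmomatic 0.36, STAR 2.5.2b, featureCounts, Subread 1.5.2 and DESeq2 with GRCm38, without their roles. The annotation release and strand setting are not given in the sources used here, so reads of antisense partners may be included. RNA was enriched for mRNA, randomly primed and amplified by PCR.

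Symbols, positions and exon lengths came from GENCODE M21 (GRCm38), which matched 49056 of 49315 identifiers. Unmatched identifiers held 0.0106% of counts. Differences were tested with edgeR 4.0.16 in R 4.3.3 (filterByExpr by group, TMM, quasi-likelihood fit of 8 group means, 15993 genes, two-sided, Benjamini-Hochberg adjustment over all genes, threshold 0.05). The common biological coefficient of variation was 0.142. All 16 libraries shared 1 estimate of spread. The steps were tested on simulated data. Alternatives were DESeq2 1.42.0, other scalings and filters, only the compared libraries, replicate number as a block and leaving out each library. Tables and plots used Python 3.11.15 with pandas 2.3.3, scipy 1.17.1, numpy 2.4.6 and matplotlib 3.10.9. Counting intervals are exact binomial intervals.

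Values in every library are given for members called in an HDM or genotype comparison whose log2 fold change was 1 or more in size, with a mean of at least 1 CPM, and for the member of each subfamily highest per kilobase. From each partner list the 2 genes with the smallest p in the female WT HDM response are named. Abcb1b, Tap1 and other members are described beside these. Members, partner lists and marker lists were chosen with earlier results of these data known. Some members count in the totals but are not reported here by name.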

Additional observations from a re-analysis of the deposited data

Results flagged for a closer look

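For 2 members the HDM response differed between female WT and female KO cultures by edgeR's quasi-likelihood test of the difference. The KO minus WT difference in response was 0.569 on the log2 scale for Abcd3 and -2.307 for Abcg2, with adjusted p = 0.0177 and 0.0268. Both calls were lost when single libraries were left out, in 4 such fits for Abcd3 and 6 for Abcg2.

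For 6 members the HDM response differed between female and male WT cultures by the same test. Female minus male, the differences on the log2 scale were -3.944 for Abca13, -1.464 for Abcb6, -1.144 for Abcc1, -2.349 for Abcc3, -0.732 for Abcd3 and 1.91 for Abcg2. The calls for Abcb6, Abcc1, Abcc3 and Abcd3 held under every setting tried, while those of Abca13 and Abcg2 were each lost in 6 fits without a library, with adjusted p up to 0.16 and 0.131, and that of Abca13 also with only the compared libraries in the fit. In KO cultures the response of Abcc3 differed between the sexes by -1.537 (adjusted p = 0.015), and this call was lost in 5 fits without a library. The labels do not say whether male and female cultures were made together, so sex and culture batch cannot be told apart.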

How the results depend on the processing

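Of 40 called fold changes of members, 15 were kept under every setting, 19 were lost only when a library was left out and 6 were lost under another setting, and 0 changed sign. With a library left out, the number of members called ranged from 10 to 14 (20 with all) for the female WT HDM response, from 1 to 2 (3) for female KO, from 1 to 10 (8) for KO minus WT in female HDM cultures, from 0 to 5 (1) for the sex difference of responses in KO and from 0 to 6 (2) for the genotype difference in females. A group left with 1 library was assumed to vary like the others. With low counts kept in, the number was 7 for female KO, 2 for male KO, 10 for KO minus WT in male HDM cultures, 13 and 6 for the sex difference in WT and KO, and 7 and 1 for the genotype difference in females and males. With only the compared libraries it was 7 for female KO, 2 for the sex difference in KO and 5 for the genotype difference in females. DESeq2 gave 2 for KO minus WT in male HDM cultures, 2 for the sex difference in KO and 5 for the genotype difference in females, and library size alone gave 5 for the last. Calls over all genes moved too. With a library left out, they were fewer in every such fit of both female HDM responses and of KO minus WT in female HDM cultures. For the sex difference in KO and the genotype difference in females they went both ways. With low counts kept in, they were 2717 of 29397 for female KO, 705 for male KO, 1896 for KO minus WT in male HDM cultures, 4454 and 1977 for the sex difference and 3029 and 668 for the genotype difference. With only the compared libraries they were 2804 of 14969, 793 of 15427 and 1910 of 15447 in the order above. DESeq2 gave 508 of 12869, 1161 of 14009 and 2331 of 14579, and library size alone 1817 of 15993. The cause was not tested.

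Nothing in the labels says that replicate numbers pair the cultures. Replicate differences of same-numbered naïve and HDM libraries correlated across genes at 0.352 in female WT, -0.249 in female KO, 0.702 in male WT and 0.03 in male KO. With replicate number as a block, 5 members (and 1737 of 15993 genes) in place of 2 (and 1798) were called for the genotype difference in females and 7 in place of 6 for the sex difference in WT. The 8 HDM and genotype comparisons and the other 2 differences of responses kept their number of calls. With 2 cultures per group, differences in members under 1 CPM rest on few counts, and KO minus WT depends on labels that Lman1 did not follow in 5 libraries.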
